A study of Mus musculus with 8 samples.

Results

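The enzymes of glycolysis and glycogen metabolism were examined in RNA sequencing of whole tibialis anterior (TA) muscle, a fast-twitch muscle of the lower leg. The members are 43 genes named by symbol, from glucose entry to lactate export and from glycogen synthesis to its breakdown, and 42 of them are among the 12551 genes in the counts. *Eno1*, a broadly expressed enolase, was not analysed here. WT and KL-/- mice were male littermates at 7 weeks of age on a mixed background, with 4 muscles per genotype and 1 library per muscle, and KL-/- mice carry the mutant Klotho allele on both chromosomes in all tissues. Klotho (*Kl*) itself was not analysed here, so the genotypes rest on the labels. The libraries hold between 20860262 and 29273758 counts on genes, and the labels give 1 of the 8, KL-/- replicate 3, a later batch date. A batch effect and that mouse cannot be told apart. Values are counts relative to library size (CPM) after TMM scaling, given as mean ± SD with n = 4 muscles. Fold changes are KL-/- over WT from edgeR's quasi-likelihood test, with Benjamini-Hochberg adjustment over all genes (FDR), and a gene was called at an FDR under 0.05.

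Glycolysis splits glucose into pyruvate and yields ATP without oxygen, and fast fibers rely on it during short, intense contractions. Glycogen is the glucose polymer that a fiber stores for this purpose. Glycogenin primes the polymer, glycogen synthase and the branching enzyme extend it, and glycogen phosphorylase releases glucose units when phosphorylase kinase switches it on. The study measured the activity of glycerol phosphate dehydrogenase in sections of the same muscle type, which raises the question of how the transcripts of the glycolytic enzymes compare between the genotypes.

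Few of these transcripts were called different between WT and KL-/- muscle. Of the 42 genes, 2 were called higher in KL-/- muscle, 0 were called lower and 40 were not called. The 2 are *Fbp2*, which encodes muscle fructose-1,6-bisphosphatase, the enzyme that reverses the phosphofructokinase step, and *Gyg*, which encodes glycogenin. Of all 12551 genes, 7.35% were called higher, 6.67% lower and 14.0% in either direction, against 4.76% of the members in either direction. In the same test 10 of the 42 members had an unadjusted p under 0.05, against 4031 of the 12551 genes (32.1%). Among these members *Pfkp*, *Pgam2*, *Slc16a3* and *Gaa* were lower and *Fbp2*, *Gyg*, *Gpi1*, *Gapdh*, *Gpd2* and *Epm2a* higher. DESeq2 called 5 members higher (*Gpi1*, *Aldoa*, *Gapdh*, *Fbp2* and *Gyg*) and 0 lower, among 2456 genes called (1313 higher). The likelihood ratio test, limma-voom and edgeR's earlier quasi-likelihood form each called 3 members, *Gapdh*, *Fbp2* and *Gyg*. These called 2124, 1775 and 1715 genes in all. Scaled by library totals alone, 1 member was called higher (*Fbp2*) and 5 lower (*Pfkp*, *Pgam2*, *Slc16a3*, *Phka1* and *Gaa*). With that scaling 2619 of the 12551 genes were called, 492 of them higher, and the median over all genes was a log2 fold change of -0.13. Without KL-/- replicate 2, 4 members were called higher and 1 lower, among 2755 genes called (1521 higher). Without KL-/- replicate 3, 1 member was called higher, among 762 genes called. Without WT replicate 1 or 2, 0 members were called, among 1193 and 780 genes called. The median log2 fold change was 0.050 over the members and -0.016 over all genes.

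The precision was close to that of other genes. The median standard error of the log2 fold change was 0.12 for the members and 0.11 for all genes. The 95% interval lay wholly within 0.5 of 0 in 24 members (57.1%), against 55.6% of all genes. An absolute log2 fold change under 0.1 was found in 19 members (45.2%), against 30.4% of all genes.

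**Figure D1:**
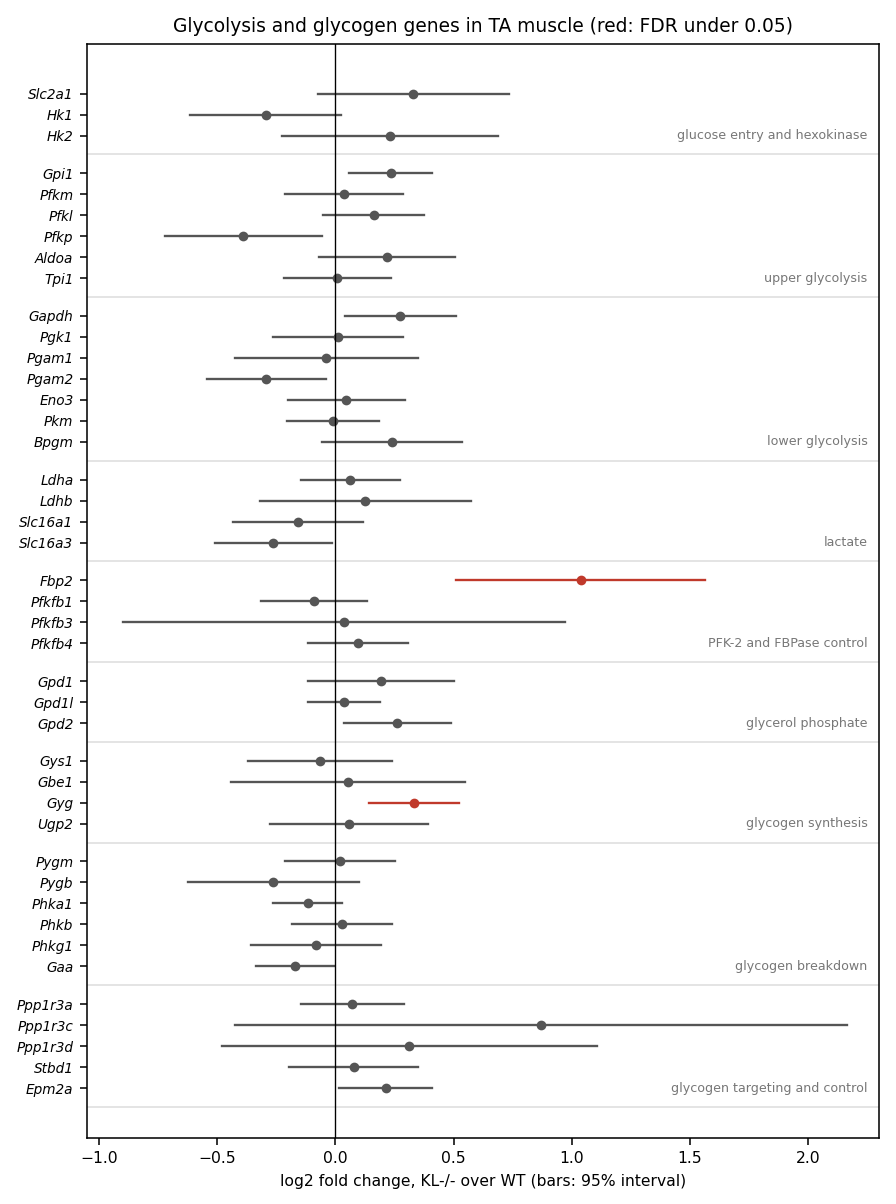
Log2 fold change of KL-/- over WT for the 42 genes, grouped by role. Points are estimates, bars are 95% intervals, and *Fbp2* (1.04) and *Gyg* (0.33), in red, are the genes with an FDR under 0.05.

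*Fbp2* had the largest fold change of the 42 genes. Its level was 34.9, 33.1, 49.98 and 47.4 CPM in WT replicates 1 to 4 and 69.9, 131.8, 64.5 and 73.8 CPM in KL-/- replicates 1 to 4. All 4 KL-/- muscles lay above all 4 WT muscles, and KL-/- replicate 2 was far above the other 3. The means were 41.3 ± 8.61 and 85.0 ± 31.4 CPM, a 2.05-fold difference (log2 fold change 1.04 ± 0.23 SE, 95% interval 0.51 to 1.56, FDR = 0.0219). Without KL-/- replicate 2 the log2 fold change was 0.75, with an FDR of 0.00992. The call was lost without WT replicate 1 (FDR = 0.0541) or WT replicate 2 (FDR = 0.0632).

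*Gyg* rose less, and more evenly. Its level was 325.3, 315.7, 277.8 and 346.1 CPM in WT replicates 1 to 4 and 403.8, 351.5, 420.1 and 418.8 CPM in KL-/- replicates 1 to 4. The genotypes did not overlap, but the lowest KL-/- muscle, replicate 2, was close to the highest WT muscle, replicate 4. The means were 316 ± 28.6 and 399 ± 32.2 CPM, a 1.26-fold difference (log2 fold change 0.33 ± 0.085 SE, 95% interval 0.14 to 0.52, FDR = 0.0319). The call held in 2 of the 8 fits that each left out 1 muscle, those without WT replicate 4 (FDR = 0.0333) and KL-/- replicate 2 (FDR = 0.00809). It was lost without WT replicates 1 (FDR = 0.0575), 2 (FDR = 0.0794) and 3 (FDR = 0.0775) and without KL-/- replicates 1 (FDR = 0.0585), 3 (FDR = 0.0880) and 4 (FDR = 0.0874). Scaled by library totals alone, the log2 fold change of *Gyg* was 0.22 (FDR = 0.0953).

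*Fbp2* spans bases 62836885 to 62858370 of chromosome 13 and *Gyg* bases 20122084 to 20155116 of chromosome 3, both on the minus strand of mm10 (GRCm38). The windows around their start sites, from 250 bases before to 50 bases after, are shown because these are the members that were called. They are RefSeq sequences on GRCm38.p6, chr13:62858351-62858650 for *Fbp2* and chr3:20155067-20155366 for *Gyg*. Both are printed 5′ to 3′ on the minus strand, with the letters CACGTG, known as an E-box, in capitals.
Fbp2: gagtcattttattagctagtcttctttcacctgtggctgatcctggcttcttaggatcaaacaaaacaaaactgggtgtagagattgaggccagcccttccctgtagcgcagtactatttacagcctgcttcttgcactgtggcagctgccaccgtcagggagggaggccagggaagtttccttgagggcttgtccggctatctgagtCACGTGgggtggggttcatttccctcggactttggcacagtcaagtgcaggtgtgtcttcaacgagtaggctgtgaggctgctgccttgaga
Gyg: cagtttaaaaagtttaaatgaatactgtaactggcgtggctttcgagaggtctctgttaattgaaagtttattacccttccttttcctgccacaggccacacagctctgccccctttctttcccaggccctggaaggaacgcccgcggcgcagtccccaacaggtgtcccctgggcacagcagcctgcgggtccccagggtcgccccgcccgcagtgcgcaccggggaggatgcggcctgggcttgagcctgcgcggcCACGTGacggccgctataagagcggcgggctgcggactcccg

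The CACGTG match begins at base 209 of the *Fbp2* window and at base 259 of the *Gyg* window. Windows were given for 41 of the 42 genes, 55 in all because some genes have several start sites. CACGTG was found in 10 of the 55 windows (18.2%), each of a different gene, and in 7.15% of all 32851 windows. The other 8 genes with a match were *Gaa*, *Gpd1l*, *Ldha*, *Pfkfb3*, *Pfkm*, *Ppp1r3c*, *Ppp1r3d* and *Slc16a1*, none of which was called. The shorter ACGTG, which every CACGTG contains, was found in 49.1% of the members' windows and 19.6% of all windows. CACGTG was picked for display from 10 searched motifs after *Fbp2* and *Gyg* were known to be called and the matches had been seen, so its presence in both windows is a description. The other 8 were GTAAACA (0 of the members' windows, 3.65% of all), AGAACA (18.2% and 19%), TCAGGTT (1.82% and 4.07%), the MEF2 motif (5.45% and 3.19%), GGGTGGG (29.1% and 17.5%), TATAAA (5.45% and 13.6%), CATTCC (9.09% and 14.7%) and CCAAT (36.4% and 37.4%). Of these 8, GGGTGGG was the 1 found in the *Fbp2* window, and none was found in the *Gyg* window. Both strands were searched.

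Transcripts of the core pathway dominated in both genotypes. Levels of different genes were compared as CPM per kilobase of counted exon. *Aldoa*, which encodes the muscle aldolase that splits fructose-1,6-bisphosphate, had the highest level, 8634 CPM per kilobase in WT and 10054 in KL-/- muscle. *Gapdh* followed with 4563 and 5518, and *Eno3*, the muscle enolase, with 3687 and 3809. *Ppp1r3d*, a targeting subunit of a glycogen-bound phosphatase, had the lowest level, 0.537 in WT and 0.680 in KL-/- muscle. Without TMM scaling, the 42 genes together took 6.32 to 6.60% of all counts in the WT libraries and 6.23 to 6.65% in the KL-/- libraries. After TMM scaling their summed level was 59952 to 63634 CPM in WT and 63579 to 69692 CPM in KL-/- muscle. Both pairs of ranges overlapped, the second barely. The TMM factors were 1.02 to 1.05 in WT and 0.950 to 0.980 in KL-/- libraries, so the scaling raises KL-/- levels relative to WT.

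**Figure D2:**
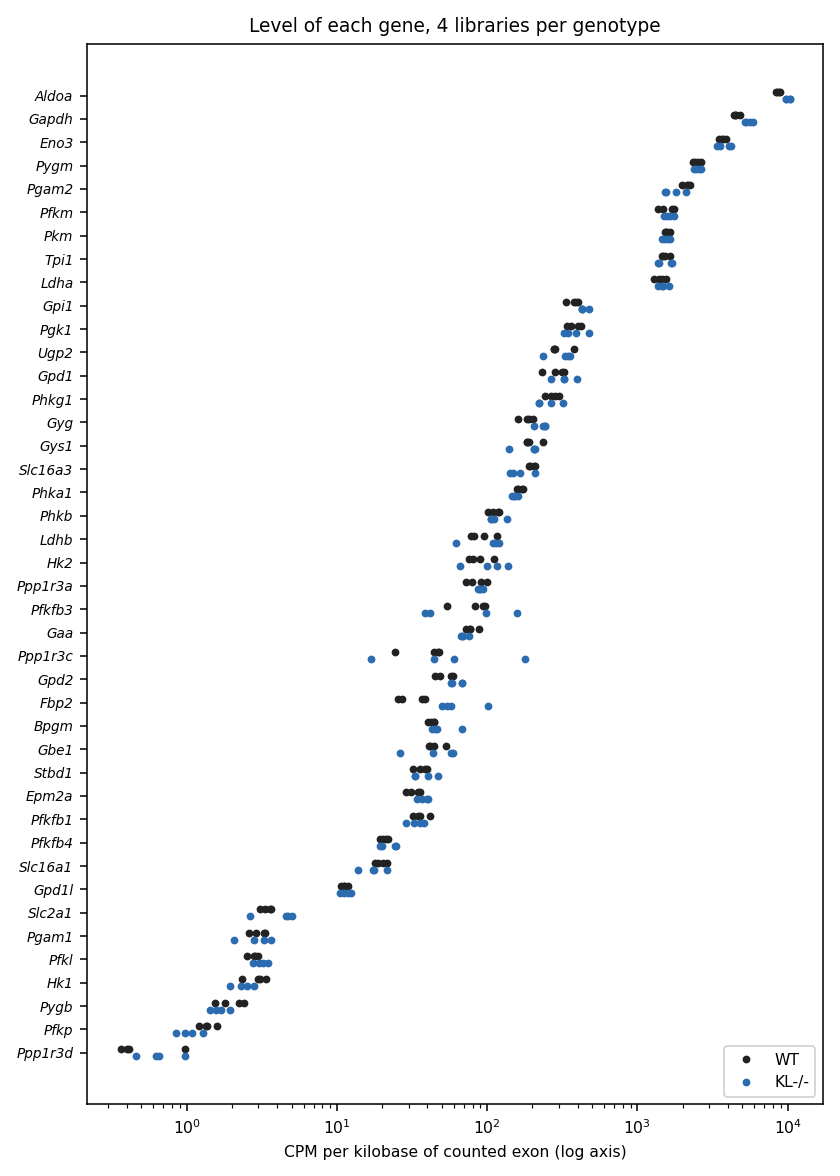
Level of each gene in CPM per kilobase of counted exon (log axis), with 1 point for each of the 4 WT (black) and 4 KL-/- (blue) libraries. The order runs from *Aldoa* to *Ppp1r3d*, and for most genes the genotypes overlap.

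None of the 3 genes of glucose entry and phosphorylation was called. *Hk2*, the main muscle hexokinase and the most abundant of the 3 per kilobase, was at 494.6, 415.7, 440.3 and 611.0 CPM in WT and at 753.2, 365.6, 637.4 and 545.6 CPM in KL-/- replicates 1 to 4 (log2 fold change 0.23 ± 0.20 SE, FDR = 0.462). The lowest of all 8 values was KL-/- replicate 2 and the highest KL-/- replicate 1. *Slc2a1*, the basal glucose transporter GLUT1, averaged 8.74 ± 0.634 CPM in WT muscle against 11.0 ± 2.82 CPM in KL-/- muscle (log2 fold change 0.33, FDR = 0.234). KL-/- replicate 2, at 6.77 CPM, lay below every WT muscle and the other 3 above every one. Without that library, picked for its value, the log2 fold change was 0.51, with an FDR of 0.00715. Of the 8 fits that each left out 1 muscle, this was the 1 that called *Slc2a1*, and the FDR reached 0.455. *Hk1*, the hexokinase of most other tissues, had a log2 fold change of -0.30 (FDR = 0.186).

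In the upper steps, from glucose-6-phosphate to the triose phosphates, *Gpi1* and *Aldoa* separated the genotypes by sample without passing the test. *Gpi1*, glucose-6-phosphate isomerase, was at 1084, 1153, 1126 and 968.5 CPM in WT and at 1240, 1244, 1234 and 1378 CPM in KL-/- replicates 1 to 4 (log2 fold change 0.23 ± 0.079 SE, FDR = 0.0746). *Aldoa* was at 16025, 16240, 15286 and 15446 CPM in WT and at 17872, 17846, 18819 and 18814 CPM in KL-/- replicates 1 to 4 (log2 fold change 0.22 ± 0.13 SE, FDR = 0.264). Every KL-/- muscle exceeded every WT muscle for both genes, by a small margin. DESeq2 called both, with adjusted p-values of 0.0147 for *Gpi1* and 1.47e-04 for *Aldoa*. The SE of *Aldoa* depended on the test: 0.13 in the main test, 0.065 in limma-voom and 0.050 in DESeq2. Its missing call in the main test is therefore not a measure of the spread among muscles alone.

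Phosphofructokinase, the committed step of glycolysis, did not differ detectably in its muscle form. *Pfkm* averaged 4805 ± 536 CPM in WT muscle against 4933 ± 310 CPM in KL-/- muscle (log2 fold change 0.038, 95% interval -0.21 to 0.29, FDR = 0.841). The liver form *Pfkl* had a log2 fold change of 0.16 (FDR = 0.270) and the platelet form *Pfkp* of -0.39 (FDR = 0.107), both at under 4 CPM per kilobase. The ratio of *Pfkm* to *Pfkl* per kilobase was 489 to 600 in WT and 474 to 579 in KL-/- muscle, and that of *Pfkm* to *Pfkp* 858 to 1422 and 1230 to 1794. Both pairs of ranges overlapped. *Tpi1*, triose phosphate isomerase, had a log2 fold change of 0.0084 (95% interval -0.22 to 0.23).

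**Figure D3:**
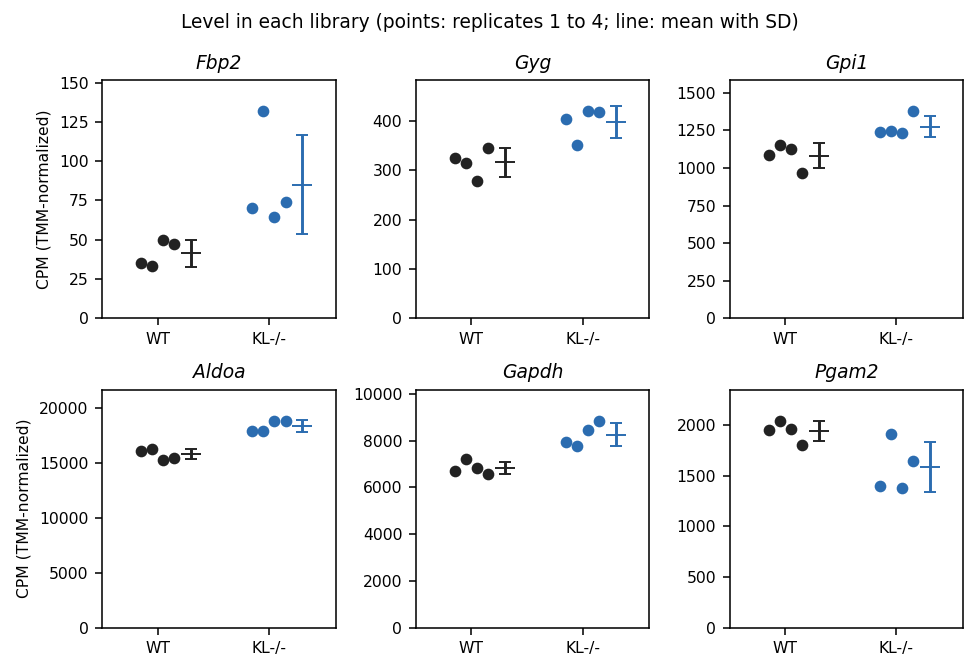
CPM in each library for *Fbp2*, *Gyg*, *Gpi1*, *Aldoa*, *Gapdh* and *Pgam2*, with replicates 1 to 4 from left to right, and the mean with SD beside them. The first 5 separate the genotypes without overlap, and in *Pgam2* KL-/- replicate 2 (1911 CPM) lies within the WT range.

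In the lower steps, *Gapdh* and *Pgam2* pointed in opposite directions. *Gapdh*, glyceraldehyde-3-phosphate dehydrogenase, was at 6722, 7205, 6812 and 6567 CPM in WT and at 7956, 7757, 8452 and 8853 CPM in KL-/- replicates 1 to 4, without overlap (log2 fold change 0.27 ± 0.10 SE, 95% interval 0.040 to 0.51, FDR = 0.107). Whether *Gapdh* passes depends on the test. It was called by edgeR's earlier form of the quasi-likelihood test (FDR = 0.0465), its likelihood ratio test (FDR = 0.0430), limma-voom (adjusted p = 0.0337) and DESeq2 (adjusted p = 5.40e-04). Of the 8 quasi-likelihood fits that each left out 1 muscle, 1 called it, that without KL-/- replicate 2 (FDR = 0.0383). In these 8 the FDR reached 0.237. The form used here was set after the result of the earlier form had been seen, so the call of *Gapdh* is undecided. Together *Gpi1*, *Aldoa*, *Gapdh*, *Fbp2* and *Gyg* are 5 members without overlap between genotypes, all higher in KL-/- muscle, where 10.2% of all genes were higher and 9.47% lower without overlap, 19.7% in all. The 5 of 42 that were higher are near the 10.2% of all genes that were higher, and 0 of 42 were lower.

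*Pgam2*, the muscle phosphoglycerate mutase, was at 1951, 2041, 1956 and 1803 CPM in WT and at 1396, 1911, 1381 and 1643 CPM in KL-/- replicates 1 to 4 (log2 fold change -0.29 ± 0.11 SE, FDR = 0.109). KL-/- replicates 1, 3 and 4 were below all WT muscles and replicate 2 was not. Without replicate 2, picked for its value, the log2 fold change was -0.39, with an FDR of 0.0152. That was the 1 call of *Pgam2* in 8 fits that each left out 1 muscle, and the FDR reached 0.256. The ratio of *Pgam2* to the brain form *Pgam1* per kilobase was 598 to 837 in WT and 426 to 872 in KL-/- muscle, with overlap. *Eno3*, *Pgk1* (phosphoglycerate kinase), *Pkm* (pyruvate kinase) and *Pgam1* had log2 fold changes from -0.039 to 0.047. *Bpgm*, which makes 2,3-bisphosphoglycerate and is best known from red blood cells, was at 83.6 to 91.0 CPM in WT muscle and at 89.2, 139.6, 92.5 and 95.5 CPM in KL-/- replicates 1 to 4 (log2 fold change 0.24, FDR = 0.238). *Alas2*, the 1 red blood cell marker of 9 in the counts, was at 3.35 to 9.57 CPM in WT and at 3.07, 8.68, 3.90 and 9.16 CPM in KL-/- replicates 1 to 4, and its part in *Bpgm* was not tested.

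Lactate enzymes and carriers did not pass the test. *Ldha*, the lactate dehydrogenase subunit typical of fast fibers and the most abundant of this group per kilobase, was at 2799, 2994, 2688 and 2481 CPM in WT and at 2644, 3133, 2830 and 2843 CPM in KL-/- replicates 1 to 4 (log2 fold change 0.063, 95% interval -0.15 to 0.27, FDR = 0.674). *Ldhb*, the subunit typical of oxidative tissue, had a log2 fold change of 0.13 ± 0.20 SE (FDR = 0.692). The ratio of *Ldha* to *Ldhb* per kilobase was 15.2, 19.9, 17.0 and 11.1 in WT and 12.6, 26.1, 12.3 and 12.8 in KL-/- replicates 1 to 4. KL-/- replicate 2 was the highest of the 8 and WT replicate 4 the lowest. *Slc16a3*, the lactate exporter MCT4, was at 528, 488, 501 and 533 CPM in WT and at 368, 384, 423 and 533 CPM in KL-/- replicates 1 to 4 (log2 fold change -0.26 ± 0.11 SE, FDR = 0.135), so KL-/- replicates 1 to 3 lay below all WT muscles and replicate 4 within their range. Without KL-/- replicate 4, picked for its value, the log2 fold change was -0.39 (FDR = 0.0264). That was the 1 call of *Slc16a3* in 8 fits that each left out 1 muscle, and the FDR reached 0.287. The log2 fold change of *Slc16a1*, which encodes the carrier MCT1, was -0.16 (FDR = 0.394), and the ratio of *Slc16a3* to *Slc16a1* overlapped, at 9.29 to 11.5 in WT and 6.62 to 11.7 in KL-/- muscle.

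The bifunctional enzymes that make and remove fructose-2,6-bisphosphate, the activator of phosphofructokinase, are encoded by *Pfkfb1*, *Pfkfb3* and *Pfkfb4*. *Pfkfb3*, the most abundant of these and *Fbp2* per kilobase, was at 285.9, 514.6, 438.0 and 494.9 CPM in WT and at 203.3, 836.4, 221.2 and 516.5 CPM in KL-/- replicates 1 to 4. The KL-/- muscles spanned the whole WT range on both sides, and the difference was not detectable (log2 fold change 0.036 ± 0.42 SE, FDR = 0.962). *Pfkfb1* and *Pfkfb4* had log2 fold changes of -0.091 and 0.097. The ratio of *Fbp2* to *Pfkm* per kilobase, chosen after its members' values had been seen, was 0.0158 to 0.0281 in WT and 0.0304 to 0.0677 in KL-/- muscle. It was the 1 ratio of 11 without overlap, and it follows *Fbp2*, since *Pfkm* was nearly level.

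Glycerol-3-phosphate dehydrogenases carry cytosolic reducing equivalents to mitochondria. The cytosolic form *Gpd1*, the most abundant of the 3 per kilobase, was at 786.8, 904.5, 874.3 and 642.0 CPM in WT and at 909.7, 1109, 743.0 and 902.2 CPM in KL-/- replicates 1 to 4 (log2 fold change 0.19 ± 0.14 SE, 95% interval -0.12 to 0.50, FDR = 0.360). Among KL-/- muscles, replicates 3 and 4 were inside the WT range, replicate 1 barely above it and replicate 2 well above it. The mitochondrial form *Gpd2* averaged 311 ± 40.3 CPM in WT muscle against 372 ± 32.8 CPM in KL-/- muscle (log2 fold change 0.26 ± 0.10 SE, FDR = 0.111), and *Gpd1l* had a log2 fold change of 0.036. The ratios of *Gpd1* to *Gpd1l* (20.7 to 29.4 in WT, 21.5 to 38.0 in KL-/- muscle) and of *Gpd1* to *Gpd2* (4.95 to 6.46 and 4.55 to 5.90) overlapped. *Gpd1* is also abundant in fat cells. Of 8 adipocyte markers 6 were in the counts, all with a positive fold change and 1 called higher (*Fabp4*), where 7.35% of all genes were called higher. Their summed level was 206 to 241 CPM in WT and 240 to 324 CPM in KL-/- muscle, with overlap. Most of each sum was *Fabp4*, with means of 187 and 225 CPM. *Adipoq*, *Cidec*, *Cfd* and *Retn* had genotype means of 0.499 to 20.8 CPM, were not called and were each highest in KL-/- replicate 1. The part of fat cells in *Gpd1* was not tested. In whole muscle, a change in the number of cells of a type and a change in RNA per cell cannot be told apart.

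Of the 4 genes of glycogen synthesis, *Gyg* was called. *Gys1*, muscle glycogen synthase, was at 699.1, 678.5, 679.2 and 867.3 CPM in WT and at 754.8, 517.6, 754.0 and 765.9 CPM in KL-/- replicates 1 to 4 (log2 fold change -0.066 ± 0.14 SE, FDR = 0.767). In each genotype 3 muscles were nearly level and 1 stood apart, WT replicate 4 above and KL-/- replicate 2 below. *Ugp2*, which makes the UDP-glucose that glycogen synthase uses and was the most abundant of the group per kilobase, behaved in the same way, at 868.4, 873.3, 857.5 and 1178 CPM in WT and at 1076, 731.8, 1097 and 1029 CPM in KL-/- replicates 1 to 4 (log2 fold change 0.058, FDR = 0.813). The branching enzyme *Gbe1* ranged from 122 to 160 CPM in WT and from 78.2 to 177 CPM in KL-/- muscle (log2 fold change 0.053 ± 0.22 SE, FDR = 0.891).

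Of the 6 genes of glycogen breakdown none was called. *Pygm*, muscle glycogen phosphorylase and the most abundant of the group per kilobase, was at 7577, 7204, 6851 and 6646 CPM in WT and at 6788, 7571, 7021 and 7259 CPM in KL-/- replicates 1 to 4. The genotypes lay within the same range (log2 fold change 0.018, 95% interval -0.21 to 0.25, FDR = 0.919). The ratio of *Pygm* to the brain form *Pygb* per kilobase overlapped, at 994 to 1516 in WT and 1222 to 1780 in KL-/- muscle. *Pygb* had a log2 fold change of -0.26 (FDR = 0.286). The phosphorylase kinase subunits *Phka1*, *Phkb* and *Phkg1* had log2 fold changes of -0.12, 0.030 and -0.082. *Gaa*, the lysosomal enzyme that degrades glycogen, averaged 299 ± 25.9 CPM in WT muscle against 265 ± 14.9 CPM in KL-/- muscle (log2 fold change -0.17 ± 0.074 SE, FDR = 0.142).

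Of the 5 genes that target proteins to glycogen or control it, none was called. *Ppp1r3a*, the main muscle subunit that brings protein phosphatase 1 to glycogen, was at 707.7, 564.8, 514.1 and 650.8 CPM in WT and at 638.0, 670.5, 619.4 and 633.8 CPM in KL-/- replicates 1 to 4 (log2 fold change 0.072, FDR = 0.646). The KL-/- values lay inside the WT range. *Ppp1r3c*, another such subunit, was at 128.4, 64.9, 126.5 and 119.3 CPM in WT and at 117.9, 45.1, 479.1 and 161.1 CPM in KL-/- replicates 1 to 4. Its log2 fold change of 0.87 ± 0.58 SE (FDR = 0.323) rests on KL-/- replicate 3, which has the later batch date, and was -0.023 without it. *Epm2a*, the glycogen phosphatase laforin, had a log2 fold change of 0.21 (FDR = 0.128), and *Stbd1*, a glycogen-binding protein, of 0.077. *Ppp1r3d* had a log2 fold change of 0.31 ± 0.35 SE at 1.18 to 3.20 CPM. The ratio of *Ppp1r3a* to *Ppp1r3c* per kilobase overlapped, at 1.53 to 3.27 in WT and 0.486 to 5.59 in KL-/- muscle.

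**Figure D4:**
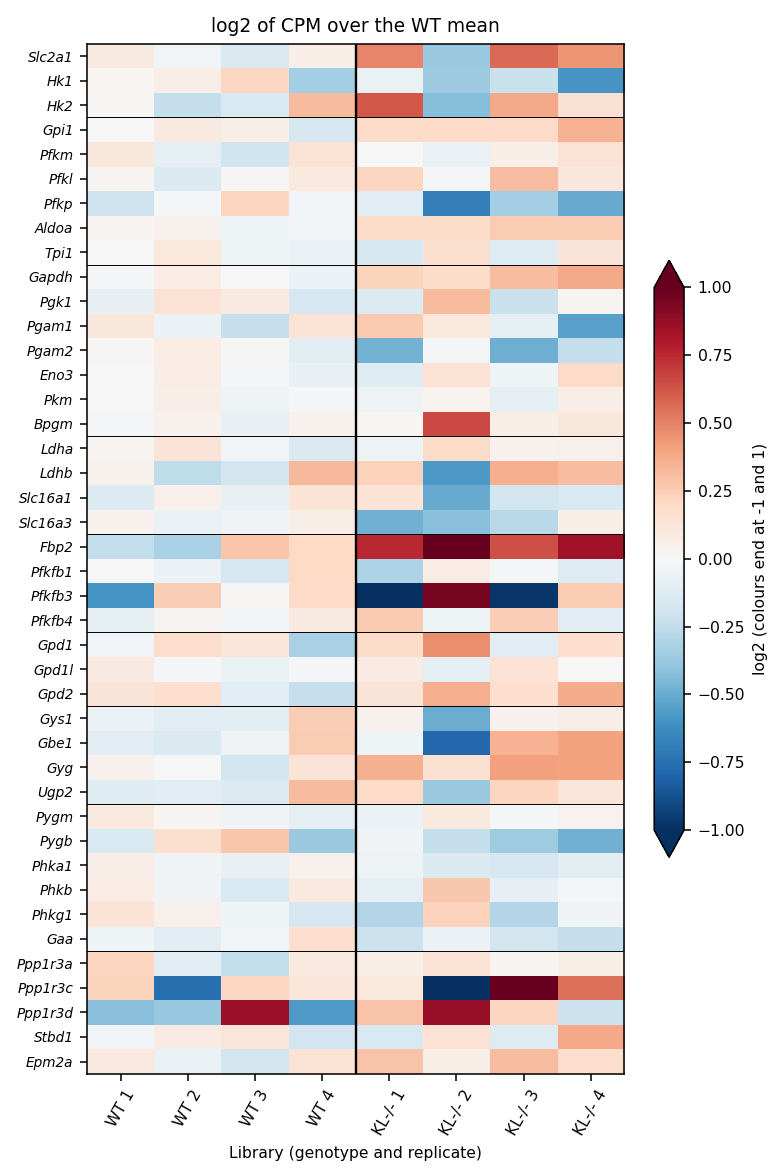
Log2 of the CPM in each library over the WT mean for the 42 genes (rows, by role). Colours end at -1 and 1. *Fbp2* is raised in all 4 KL-/- libraries, and KL-/- replicate 2 differs from the other KL-/- libraries in many rows, such as *Gbe1*, *Ldhb* and *Gys1*.

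Muscles of 1 genotype varied widely for many members, and the libraries described here were chosen after their values had been seen. KL-/- replicate 2 was the highest or the lowest of its genotype in 31 of the 42 genes (73.8%), against 62.9% of all genes. WT replicate 4 was so in 31 genes as well, against 57% of all genes. In 10 members (23.8%) KL-/- replicate 2 was the lowest KL-/- muscle and WT replicate 4 the highest WT muscle, against 12% of all genes: *Hk2*, *Pfkm*, *Pfkl*, *Ldhb*, *Slc16a1*, *Gys1*, *Gbe1*, *Gyg*, *Ugp2* and *Epm2a*. In 8 members (19.0%) the reverse held, again against 12% of all genes: *Tpi1*, *Pgk1*, *Pgam2*, *Ldha*, *Gpd1*, *Pygm*, *Phkg1* and *Ppp1r3d*. The first set includes all 4 genes of glycogen synthesis, and the second includes *Pygm* and *Phkg1* of glycogen breakdown.

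These libraries also differed in fiber-type transcripts. *Myh2*, the myosin of oxidative type IIa fibers, was at 1169, 1662, 2486 and 4436 CPM in WT and at 5252, 292, 5441 and 3445 CPM in KL-/- replicates 1 to 4. WT replicate 4 was the highest WT muscle and KL-/- replicate 2 was the lowest of all 8. The 8 markers of slow or type IIa fibers summed to 1294 to 4630 CPM in WT and 412 to 5599 CPM in KL-/- muscle. Most of these sums was *Myh2*, which was not called (log2 fold change 0.57, FDR = 0.613). The 3 called higher were the slow troponins *Tnnt1*, *Tnni1* and *Tnnc1*, with genotype means of 2.15 to 8.52 CPM. *Myl3* and *Atp2a2* had negative fold changes and were not called. *Myh4*, the myosin of glycolytic type IIb fibers, was highest in KL-/- replicate 2, at 62798 CPM, and at 42976 to 45341 CPM in the other KL-/- muscles and 32439 to 37575 CPM in WT, without overlap but not called (log2 fold change 0.46, FDR = 0.155). *Myh1*, the myosin of type IIx fibers, was at 16890 to 20009 CPM in WT muscles and at 11209 to 17782 CPM in KL-/- muscles (log2 fold change -0.31, FDR = 0.246). The 10 fast fiber markers summed to 159225 to 181744 CPM in WT and 189495 to 235105 CPM in KL-/- muscle, with 1 called higher (*Actn3*). The list includes *Acta1* and *Ckm*, which are not particular to fast fibers, so the sum does not measure fast fibers alone. The part of fiber-type transcripts in the members' levels was not tested.

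**Figure D5:**
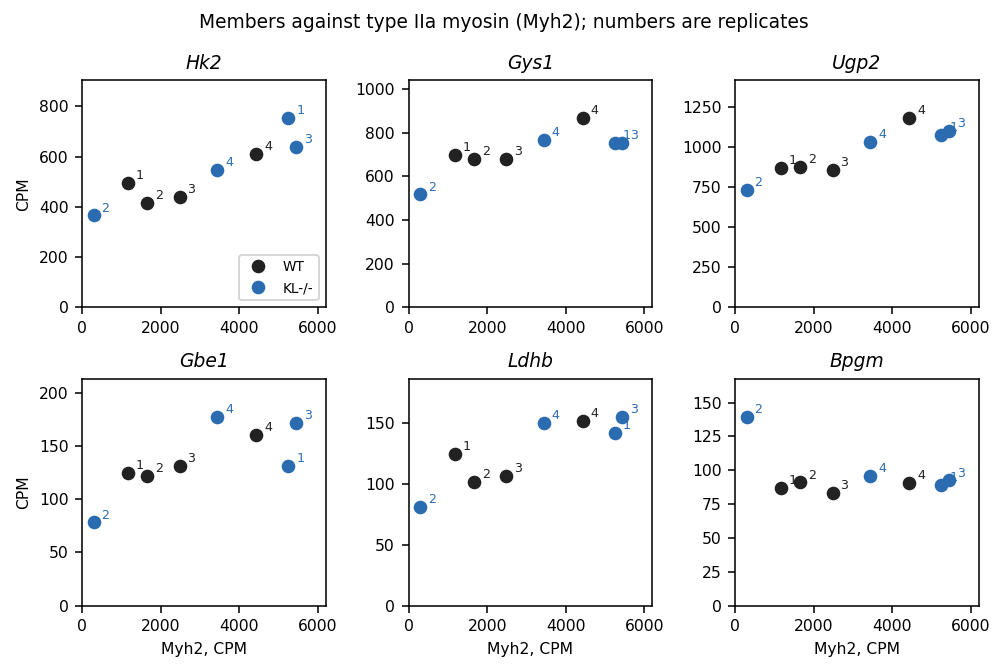
CPM of 6 members against CPM of *Myh2* in each library, WT in black and KL-/- in blue, with replicate numbers. The genes were chosen after their values had been seen: KL-/- replicate 2, at the far left with 292 CPM of *Myh2*, is lowest for *Hk2*, *Gys1*, *Ugp2*, *Gbe1* and *Ldhb* and highest for *Bpgm*.

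Some markers of other cell types were called, where 7.35% of all genes were called higher and 6.67% lower. Leukocyte markers summed to 107 to 204 CPM in WT and 48.4 to 93.2 CPM in KL-/- muscle, with 3 of 10 called lower, and fibroblast markers to 915 to 3746 and 509 to 1680 CPM, with 3 of 7 lower. Schwann cell and nerve markers summed to 58.3 to 105 and 110 to 136 CPM, with 4 of 8 called higher, and endothelial markers to 476 to 730 and 444 to 490 CPM, with 1 of 8 lower. The leukocyte sums and the Schwann cell and nerve sums did not overlap between genotypes, and the fibroblast and endothelial sums did. Isozymes described above as forms of other tissues went in different directions, and none was called. Means for WT and then KL-/- muscle were 13.2 and 10.8 CPM for *Hk1*, 5.78 and 4.39 CPM for *Pfkp* and 7.67 and 6.37 CPM for *Pygb*. They were 10.4 and 11.6 CPM for *Pfkl* and 5.54 and 5.39 CPM for *Pgam1*. The basal transporter *Slc2a1*, at 8.74 and 11.0 CPM, was not called either. The part of other cell types in the members was not tested. Transcripts of skeletal muscle were abundant, and *Acta1*, *Ckm* and *Myh4* were each between 16755 and 62798 CPM in every library.

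Of 74 other genes of carbohydrate metabolism and its control, 62 were in the counts, 4 were called higher and 2 lower. These are 9.68% of the 62, below the 14.0% of all genes called, and the genes are named by the rule and not as a change of the list.

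The 4 genes that rose were of low or moderate level. *Phka2*, the liver-type alpha subunit of phosphorylase kinase, was at 9.31, 9.02, 9.49 and 8.71 CPM in WT and at 13.5, 12.5, 10.3 and 12.7 CPM in KL-/- replicates 1 to 4 (log2 fold change 0.43, FDR = 0.0231). *Prps1*, which makes phosphoribosyl pyrophosphate, was at 38.0 ± 4.60 and 49.98 ± 1.67 CPM (log2 fold change 0.40, FDR = 0.0192), and *Khk*, fructokinase, at 10.8 ± 0.80 and 13.3 ± 0.498 CPM (log2 fold change 0.30, FDR = 0.0395). *Klf15*, a transcription factor of glucose and amino acid metabolism, was at 40.6 ± 9.06 and 67.5 ± 19.4 CPM with overlap between genotypes (log2 fold change 0.73 ± 0.21 SE, FDR = 0.0488). Some of these calls were lost when 1 muscle was left out. That of *Phka2* was lost without WT replicate 2 (FDR = 0.0626), WT replicate 3 (FDR = 0.0524) or KL-/- replicate 4 (FDR = 0.0660), and that of *Prps1* without WT replicate 2 (FDR = 0.0533), WT replicate 3 (FDR = 0.0542) or KL-/- replicate 3 (FDR = 0.0541). *Khk* and *Klf15* were called only in the fits without WT replicate 1 or KL-/- replicate 2, and in the other 6 their FDR reached 0.105 and 0.128. None of the 7 measured glucose and pyruvate transport genes was called, and *Slc2a4*, the insulin-responsive transporter GLUT4, had a log2 fold change of -0.071 ± 0.15 SE.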

How the data were processed

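RNA was extracted from whole TA muscles of 4 WT and 4 KL-/- mice. The authors mapped reads to mm10 with STAR and used featureCounts for the number of reads on each gene, and deposited these raw counts. The submitters' processing notes also name FastQC and edgeR. The annotation version and the strand setting are not given in the sources used here. In the GENCODE annotation 12 of the 42 members, *Pfkm*, *Aldoa*, *Gpi1* and *Gys1* among them, overlap exons of a gene on the other strand, *Pkm* overlaps one on its own strand, and 5, including *Gapdh* and *Aldoa*, have named pseudogenes, so their counts are less certain. The table had already been limited to expressed genes, and edgeR's filter removed none of the 12551.

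The test was that of edgeR 4.0.16 in R 4.3.3 (TMM factors, genotype as the only term, quasi-likelihood test, Benjamini-Hochberg adjustment, FDR under 0.05). The test was first run in the package's default form, edgeR 3's, which called 1715 genes and 3 members (*Fbp2*, *Gyg* and *Gapdh*). It was then set to the newer form, which calls 1759, to match earlier processing of these data, after the first result had been seen. Neither number is the paper's, which reports 2124 genes at this threshold. The likelihood ratio test called that same number here, *Gapdh* among them. Alternatives were RLE factors, library totals, no filter, at least 10 counts in every sample, DESeq2 1.42.0, limma-voom (limma 3.58.1), the likelihood ratio test, the edgeR 3 form (added after seeing the data), the replicate number as a block and each muscle left out. Fitting was tested on simulated counts with 200 genes changed, as a check of the code. It does not measure how well differences as small as those of most members are detected. Members and lists were chosen with earlier results of these data known. Sample values are given for members with an FDR under 0.05, for the most abundant member of each role group per kilobase, and for the isozyme pairs as ratios. Genes shown beyond that rule (*Gpi1*, *Pgam2*, *Slc16a3*, *Bpgm*, *Gys1*, *Ppp1r3c*, *Myh2*), the ratios of *Fbp2* to *Pfkm* and *Ppp1r3a* to *Ppp1r3c*, and the searched motifs were chosen after values had been seen. A floor of 3 counts is 0.105 to 0.143 CPM, and it covers counting error only. Protein sequences were not used here. Of the other pathway genes, the 2 called lower are counted but not reported here on their own.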

Additional observations from a re-analysis of the deposited data

Results flagged for a closer look

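In groups of 4 muscles, a value was marked where its gap to the nearest other muscle took a larger share of the group's range than Dixon's 95% critical value allows. This marked 8 of 84 groups, where chance alone marks about 5%. For *Fbp2*, KL-/- replicate 2 was at 131.8 CPM against 64.5 to 73.8 CPM in the other KL-/- muscles, and for *Bpgm* the same muscle was at 139.6 CPM against 89.2 to 95.5 CPM. For *Gys1* that muscle was low, at 517.6 CPM against 754.0 to 765.9 CPM. WT replicate 4 was high for *Gys1*, at 867.3 CPM against 678.5 to 699.1 CPM, and for *Ugp2*, at 1178 CPM against 857.5 to 873.3 CPM. *Gpi1* in KL-/- replicate 4 was at 1378 CPM against 1234 to 1244 CPM. *Ppp1r3c* in WT replicate 2 was at 64.9 CPM against 119.3 to 128.4 CPM, and *Ppp1r3d* in WT replicate 3 at 3.16 CPM against 1.18 to 1.34 CPM.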

How the results depend on the processing

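The number of members called higher, 2, was 1 with library totals, where the median over all genes was a log2 fold change of -0.13, and 5 with DESeq2, and it ranged from 0 to 4 when 1 muscle was left out. The number called lower, 0, was 5 with library totals (*Pfkp*, *Pgam2*, *Slc16a3*, *Phka1* and *Gaa*) and 0 to 1 when 1 muscle was left out. Over all genes, 2619 were called with library totals (492 higher) and 2456 with DESeq2 (1313 higher). Of the other pathway genes, the 4 called higher were 1 with library totals and 0 to 7 without 1 muscle, and the 2 called lower were 12 with library totals, 4 with DESeq2 and 2 to 5 without 1 muscle. Without KL-/- replicate 2 there were 4 members higher and 1 lower, and 2755 genes were called in place of 1759. Without WT replicates 1 or 2 no member was called, and DESeq2 was not run on those 7 libraries. The filter on low counts removed no gene, so leaving it out changed nothing.

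The labels give both genotypes replicates 1 to 4. Deviations of same-numbered muscles correlated at -0.146, 0.181, -0.368 and 0.0170, and those of differently numbered muscles at -0.292 to 0.302. What a true pair would give is not known. These values therefore cannot decide whether same-numbered mice shared a litter or handling. With the replicate number as a block, 0 members and 0 other pathway genes were called higher, and 671 genes in all (348 higher). *Fbp2* had a log2 fold change of 0.99 (FDR = 0.0627) and *Gyg* of 0.33 (FDR = 0.0724).

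Over the 42 members and the 6 pathway genes called, 49 of the values under 17 alternatives changed direction, in 18 members, and none of these was called. With library totals the log2 fold change turned to -0.080 for *Pfkm*, -0.11 for *Tpi1*, -0.11 for *Pgk1*, -0.072 for *Eno3*, -0.055 for *Ldha*, -0.091 for *Pfkfb3*, -0.020 for *Pfkfb4*, -0.082 for *Gpd1l*, -0.066 for *Gbe1*, -0.059 for *Ugp2*, -0.10 for *Pygm*, -0.089 for *Phkb*, -0.045 for *Ppp1r3a* and -0.042 for *Stbd1*. With limma-voom and with the block, it was -0.011 and -0.0057 for *Gbe1* and -0.17 and -0.18 for *Pfkfb3*. When 1 muscle was left out, log2 fold changes ranged from -0.10 to 0.082 for *Pgk1*, -0.15 to 0.099 for *Pgam1*, -0.46 to 0.28 for *Pfkfb3*, -0.037 to 0.019 for *Pkm*, -0.022 to 0.088 for *Pfkm*, -0.037 to 0.069 for *Tpi1*, -0.050 to 0.076 for *Phkb*, -0.0016 to 0.15 for *Ppp1r3a*, -0.11 to 0.062 for *Gys1*, -0.010 to 0.053 for *Pygm*, -0.0035 to 0.085 for *Gpd1l*, -0.085 to 0.26 for *Gbe1*, -0.023 to 1.21 for *Ppp1r3c*, -0.0055 to 0.11 for *Eno3* and -0.039 to 0.15 for *Stbd1*. The causes were not tested.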
